A study of Mus musculus with 16 samples.

Results

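Blood endothelium and signalling by vascular endothelial growth factor (VEGF) were examined through 10 genes of the 49568 in the count table of mouse flexor tendon: the ligand gene Vegfa, its receptor genes Kdr and Flt1, the coreceptor genes Nrp1 and Nrp2, the angiopoietin receptor gene Tek, and the endothelial genes Pecam1, Cdh5, Emcn and Vwf. The genes were chosen by symbol, and each symbol had 1 row. Bulk RNA-seq was made of 16 libraries, with 4 libraries in each of 4 groups: uninjured tendon and tendon 7 days post injury (dpi) of the inbred strain C57BL/6J (C57), and the same for MRL/MpJ (MRL), an inbred strain known for healing several tissues with little scar. The mice were young adult males, no group carried a transgene, and the injury was a cut through part of the width of this flexor tendon (the deep one) in the middle toe of a hind paw. Per the methods, operated mice also received ketamine and xylazine for anaesthesia and buprenorphine after surgery, so these agents and the injury cannot be told apart. RNA came from single tendons whose sheath and peritendinous tissue had not been removed, so vessels of the sheath were part of the sample. The tendon genes Scx, Tnmd, Mkx, Fmod, Thbs4, Comp, Col1a1 and Kera together reached from 13630 CPM (counts scaled by library size) to 52102 CPM per library.

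Blood vessels are lined by endothelial cells, which hold together through the junction proteins encoded by Pecam1 and Cdh5. VEGF-A, made by many cell types and induced by low oxygen, binds the receptor tyrosine kinases encoded by Kdr and Flt1. The former carries most of the growth signal and the latter also acts as a decoy. Neuropilins 1 and 2 are coreceptors for VEGF proteins and receptors for class 3 semaphorins, and they are made by many cells beside endothelium. Adult tendon is a sparsely vascularised tissue, and vessels grow into it and its sheath during healing.

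Promoter sequence is shown for the ligand gene and for 3 endothelial genes because these 3 varied together between libraries with Pecam1, Flt1 and Cdh5, whereas Vegfa did not vary with them. RefSeq promoter windows on GRCm38.p6 were found for 7 of the 10 genes (Vegfa has 2 windows), and the 250 bases before the annotated start are given 5′ to 3′ on the strand of the gene. Capitals mark GGAA or TTCC, the core bound by ETS factors, a family that includes the endothelial regulators Erg and Fli1.
Kdr (chr5:75978456-75978705, minus strand): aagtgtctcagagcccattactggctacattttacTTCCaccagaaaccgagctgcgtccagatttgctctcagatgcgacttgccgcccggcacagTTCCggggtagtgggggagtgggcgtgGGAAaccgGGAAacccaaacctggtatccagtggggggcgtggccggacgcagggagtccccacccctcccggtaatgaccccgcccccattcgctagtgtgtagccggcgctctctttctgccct
Tek (chr4:94739039-94739288, plus strand): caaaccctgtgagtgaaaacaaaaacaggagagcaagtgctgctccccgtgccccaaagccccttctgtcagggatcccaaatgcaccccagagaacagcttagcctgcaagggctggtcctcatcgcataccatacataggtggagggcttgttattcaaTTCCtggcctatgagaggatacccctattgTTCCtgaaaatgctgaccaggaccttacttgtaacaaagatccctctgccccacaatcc
Emcn (chr3:137340828-137341077, plus strand): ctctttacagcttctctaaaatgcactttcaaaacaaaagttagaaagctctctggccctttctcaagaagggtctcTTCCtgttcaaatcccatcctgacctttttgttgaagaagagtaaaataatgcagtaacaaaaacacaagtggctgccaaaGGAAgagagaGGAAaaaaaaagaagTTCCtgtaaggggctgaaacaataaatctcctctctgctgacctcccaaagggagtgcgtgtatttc
Vegfa, upstream window (chr17:46032378-46032627, minus strand): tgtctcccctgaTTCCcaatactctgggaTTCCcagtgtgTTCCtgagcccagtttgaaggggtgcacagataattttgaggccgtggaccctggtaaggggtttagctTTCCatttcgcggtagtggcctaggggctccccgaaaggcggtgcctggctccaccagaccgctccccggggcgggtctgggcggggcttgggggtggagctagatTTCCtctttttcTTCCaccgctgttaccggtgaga
The core occurred 4 times in the Kdr and Emcn windows, a number reached by 33.4% of the 32851 promoter windows of the same length. It occurred 2 times in the Tek window, which 76.8% of windows reached, and 6 times in the upstream Vegfa window, which 8.69% reached. The windows of Flt1 and Nrp1 held 4 matches each, that of Nrp2 held 1, and the inner Vegfa window held 2. The median over all windows was 3. Kdr, Flt1 and Emcn lay above it and Tek below it, at counts that many other windows reached. No window was found for Pecam1, Cdh5 or Vwf, so this count did not cover those endothelial genes. ACGTG, searched on both strands as the core of the element bound by hypoxia-inducible factors, was found 1 time in the inner Vegfa window and in no other window of these genes, and 16.6% of all windows held at least 1. Such matches describe the letters of these windows.

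The total count per library lay between 12552424 and 23741648 (median 15520024.5), and the injured MRL libraries, with 18524170 to 23741648 counts, were the deepest. At these depths 3 counts, taken as the floor, corresponded to 0.124 to 0.239 CPM. Several libraries stood apart. Uninjured C57 replicate 4 held 6.17% of its counts in 12 epidermal genes such as Krt5 and Krt14, against at most 0.0907% in the other 15 libraries. Muscle genes such as Acta1 and Ckm took 6.37% of the counts of the injured C57 library BI-181 and 0.214% of those of BI-183, against at most 0.00176% elsewhere. Uninjured MRL replicate 1 and the injured MRL library BI-270 held no count of Cdh5, Kdr, Tek or Emcn. BI-270 was the deepest of all libraries, and uninjured MRL replicate 1 had 15900006 counts. Whether these absent counts came from the tissue taken or from low RNA input with pre-amplification, which the methods describe, was not tested.

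In C57 tendon, all 10 genes had a fitted log2 fold change above 0 at 7 dpi, and 1 of them, Nrp1, passed the test. That of Nrp2 was 0.00 and turned negative in 2 of the 8 fits without 1 library (lowest -0.33), and that of Vegfa was -0.03 without BI-181. In MRL tendon, Vegfa was the 1 gene of the 10 that passed. Between the injured tendons of the strains, Pecam1 and Nrp1 were lower in MRL. The test was edgeR's quasi-likelihood test with Benjamini-Hochberg adjustment over all genes tested, and a gene was called at an adjusted p under 0.05 with an absolute log2 fold change over 1. Of all genes tested, 1.07% were called after injury in C57, 7.41% after injury in MRL and 3.43% between the injured strains. In the same 3 comparisons DESeq2, at the same thresholds, called 5.28%, 10.9% and 7.91% of these genes, and 15.3%, 28.3% and 21.2% had an unadjusted p under 0.05 in edgeR, which are the shares to set beside such counts in the gene lists. A gene was tested where at least 4 libraries of a comparison reached a minimum, set at 10 counts at the median depth, so a gene that reached it in 1 group alone could differ in 1 direction alone. In these bulk samples, fewer endothelial cells and less RNA per cell cannot be told apart.

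**Figure D1:**
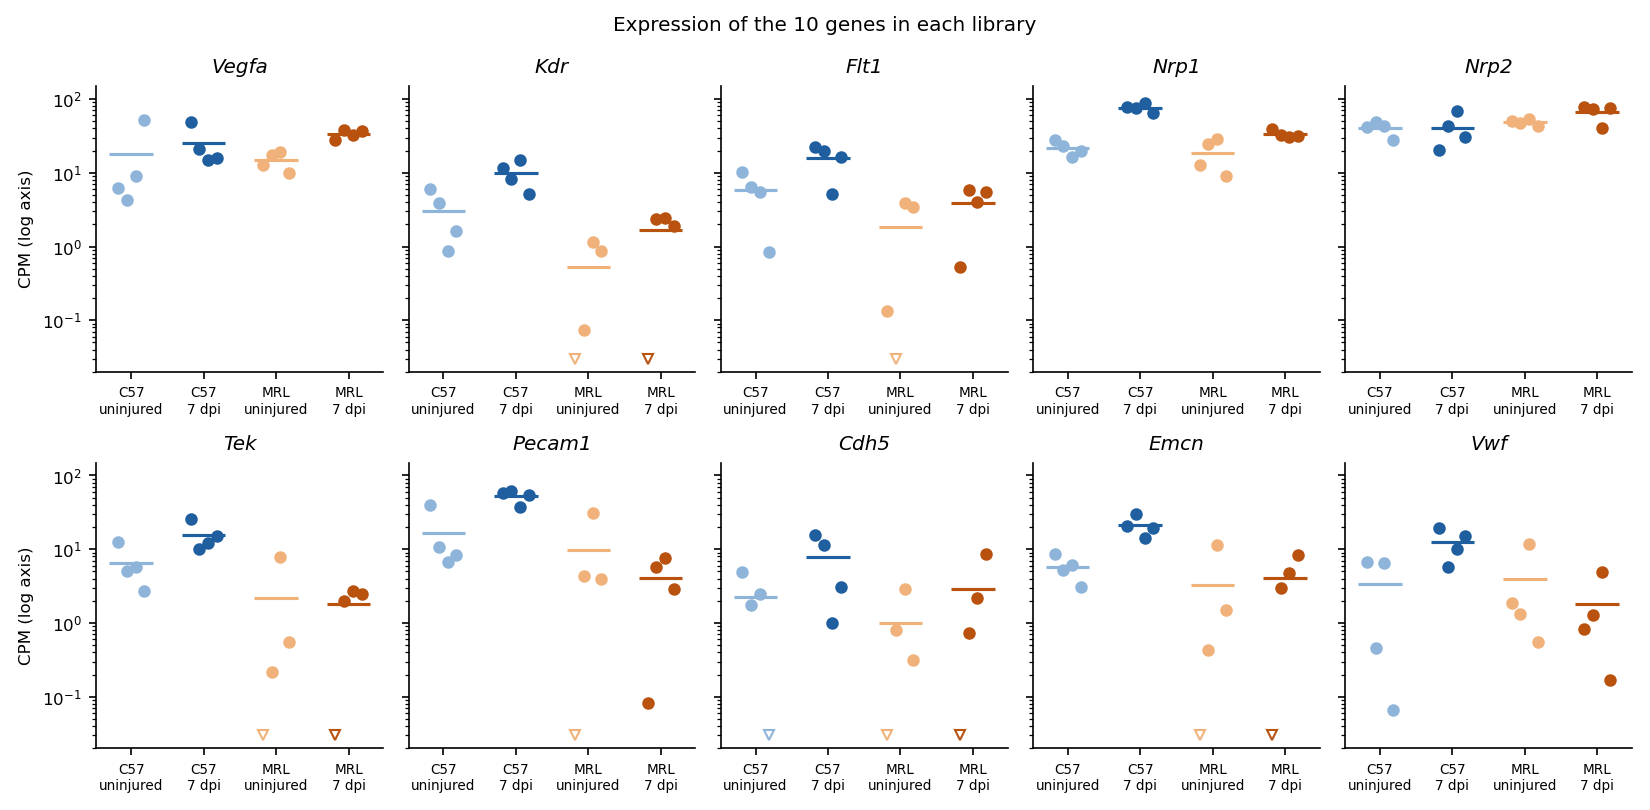
CPM of each gene in each of the 16 libraries on a log axis, in 4 groups of 4 libraries. Points are libraries in replicate order, lines are group means, and open triangles at the foot are libraries with 0 counts. Vegfa and Nrp1 in MRL, and Nrp1 and Emcn in C57, show injured libraries wholly above uninjured libraries, whereas uninjured MRL replicate 1 and BI-270 lie at 0 for Cdh5, Kdr, Tek and Emcn.

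Vegfa (ENSMUSG00000023951.17, chr17:46016993-46032369, minus strand) encodes the main ligand. In uninjured C57 tendon it was at 6.28, 4.23, 8.91 and 51.9 CPM in replicates 1 to 4. In C57 tendon 7 dpi it was at 49.0 CPM in BI-181, 21.1 CPM in BI-183, 14.7 CPM in BI-184 and 16.02 CPM in BI-185. The highest uninjured value belonged to the library with the epidermal counts and the highest injured value to the library with the most muscle counts, and the groups overlapped through the former alone. The log2 fold change in C57 was 0.48 ± 0.80 (SE), with an adjusted p of 0.83 by edgeR's quasi-likelihood test. It was 1.96 without uninjured replicate 4 (adjusted p = 0.0488, edgeR) and -0.03 without BI-181. Without both libraries, an alternative chosen after seeing the data, it was 1.47 (adjusted p = 0.0343, edgeR). The part of epidermis and muscle in the C57 values was not tested further.

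In uninjured MRL tendon Vegfa was at 12.9, 17.5, 19.1 and 9.95 CPM in replicates 1 to 4. In MRL tendon 7 dpi it was at 27.7 CPM in BI-270, 37.7 CPM in BI-272, 32.0 CPM in BI-274 and 36.9 CPM in BI-275. All 4 injured libraries lay above all 4 uninjured libraries. Vegfa rose 2.27-fold (log2 fold change 1.18 ± 0.24 SE, adjusted p = 0.0139 by edgeR's quasi-likelihood test). It was called in all 8 fits that left out 1 MRL library, with log2 fold changes from 1.04 to 1.31. It lost the call when all 16 libraries were fitted together (adjusted p = 0.275, edgeR) and when uninjured replicate 1 and BI-270 were both left out (adjusted p = 0.0707, edgeR), while the log2 fold change stayed at 1.18 and 1.19. BI-270, which had no count of Cdh5, Kdr, Tek or Emcn, had the lowest Vegfa level of the 4 injured MRL libraries, at 27.7 CPM. The injured tendons of the strains did not pass the test for Vegfa (log2 fold change of MRL over C57 0.36 ± 0.36 SE, adjusted p = 0.614 by edgeR's quasi-likelihood test), and neither did the difference of the injury effects (0.66 ± 0.87 SE, adjusted p = 0.82 by the same test).

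The receptor gene Kdr (ENSMUSG00000062960.10, chr5:75932827-75978458, minus strand) was at 5.94, 3.84, 0.859 and 1.64 CPM in uninjured C57 replicates 1 to 4. In C57 tendon 7 dpi it was at 11.7 CPM in BI-181, 8.24 CPM in BI-183, 15.1 CPM in BI-184 and 5.18 CPM in BI-185. Uninjured replicate 1 reached into the injured range. In MRL it was at 0, 0.0728, 1.13 and 0.876 CPM in uninjured replicates 1 to 4. In MRL tendon 7 dpi it was at 0 CPM in BI-270, 2.34 CPM in BI-272, 2.40 CPM in BI-274 and 1.89 CPM in BI-275. Every injured MRL library lay below every injured C57 library. The log2 fold change of injured MRL over injured C57 tendon was -2.66 ± 0.94 (SE), which did not pass edgeR's quasi-likelihood test (adjusted p = 0.144). Within strains the log2 fold changes after injury were 1.70 ± 0.65 (SE, adjusted p = 0.263, edgeR) in C57 and 1.64 ± 1.41 (SE, adjusted p = 0.485, edgeR) in MRL.

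Flt1 (ENSMUSG00000029648.13, chr5:147561604-147726011, minus strand), which encodes the decoy receptor, ranged from 0.853 to 10.4 CPM in uninjured C57 tendon and from 5.10 to 22.6 CPM 7 dpi. In MRL it ranged from 0 to 3.88 CPM in uninjured tendon and from 0.535 to 5.82 CPM 7 dpi. The injured strains overlapped, since BI-184 at 5.10 CPM lay below BI-272 at 5.82 CPM. The log2 fold change of injured MRL over injured C57 tendon was -2.09 ± 0.67 (SE, adjusted p = 0.116 by edgeR's quasi-likelihood test).

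Nrp1 (ENSMUSG00000025810.9, chr8:128358604-128503363, plus strand), the coreceptor gene, was at 28.0, 22.7, 16.4 and 20.003 CPM in uninjured C57 replicates 1 to 4. In C57 tendon 7 dpi it was at 77.6 CPM in BI-181, 76.5 CPM in BI-183, 88.6 CPM in BI-184 and 63.7 CPM in BI-185. The lowest injured library was well above the highest uninjured library. Nrp1 rose 3.49-fold (log2 fold change 1.80 ± 0.21 SE, adjusted p = 0.0121 by edgeR's quasi-likelihood test). Leaving out uninjured replicate 2 or 3 ended this call, with adjusted p values (edgeR) of up to 0.0559 and log2 fold changes over the 8 fits of 1.69 to 1.95.

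In MRL, Nrp1 was at 12.9, 24.5, 28.7 and 8.91 CPM in uninjured replicates 1 to 4. In MRL tendon 7 dpi it was at 39.6 CPM in BI-270, 32.5 CPM in BI-272, 30.4 CPM in BI-274 and 31.1 CPM in BI-275. The groups did not overlap, but the log2 fold change of 0.84 ± 0.34 (SE) did not pass edgeR's quasi-likelihood test (adjusted p = 0.133). Injured MRL libraries all lay below injured C57 libraries, and Nrp1 was lower there at 0.422-fold (log2 fold change -1.25 ± 0.17 SE, adjusted p = 0.00479 by edgeR's quasi-likelihood test). This call held in all 8 fits without 1 library, with log2 fold changes from -1.32 to -1.15. The difference between the injury effects, -1.01 ± 0.41 (SE) on the log2 scale, had an unadjusted p of 0.0265 and an adjusted p of 0.366 by edgeR's quasi-likelihood test over 15947 genes. The exons of Nrp1 hold the microRNA gene Mir1903, over 80 bases, on the same strand, and no exon of the other 9 genes overlapped another annotated gene.

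Nrp2 (ENSMUSG00000025969.15, chr1:62703285-62818695, plus strand), whose product also serves lymphatic endothelium, followed another pattern. It ranged from 28.1 to 48.8 CPM in uninjured C57 tendon and from 20.3 to 68.5 CPM 7 dpi. In MRL it ranged from 43.2 to 53.1 CPM in uninjured tendon and from 40.9 to 77.7 CPM 7 dpi. The log2 fold change after injury was 0.00 ± 0.36 (SE, adjusted p = 0.996, edgeR) in C57 and 0.48 ± 0.21 (SE, adjusted p = 0.172, edgeR) in MRL. Its log2 fold change of injured MRL over injured C57 tendon was 0.67 ± 0.36 (SE, adjusted p = 0.312, edgeR), opposite in sign to that of Nrp1.

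Pecam1 (ENSMUSG00000020717.19, chr11:106654217-106750628, minus strand) encodes the adhesion protein CD31, which platelets and some leukocytes also carry. It was at 39.9, 10.7, 6.72 and 8.46 CPM in uninjured C57 replicates 1 to 4. In C57 tendon 7 dpi it was at 58.4 CPM in BI-181, 60.8 CPM in BI-183, 37.0 CPM in BI-184 and 54.3 CPM in BI-185. Uninjured replicate 1 lay above BI-184, and the other 3 uninjured libraries lay below all injured libraries. The log2 fold change of 1.67 ± 0.55 (SE) did not pass edgeR's quasi-likelihood test (adjusted p = 0.209). It was called without uninjured replicate 1 (log2 fold change 2.60, adjusted p = 0.0280, edgeR) and by DESeq2 with all libraries (adjusted p = 0.0318).

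In MRL, Pecam1 was at 0, 4.29, 31.0 and 3.90 CPM in uninjured replicates 1 to 4. The injured MRL libraries held 0.0824 CPM in BI-270, from 2 counts, 5.77 CPM in BI-272, 7.60 CPM in BI-274 and 2.89 CPM in BI-275. Uninjured replicate 3 was above every injured library, and without it the sign of the log2 fold change, -1.27 ± 1.35 (SE, adjusted p = 0.579, edgeR), turned to 0.56. All 4 injured MRL libraries lay below all 4 injured C57 libraries. Pecam1 was lower in injured MRL tendon at 0.0746-fold (log2 fold change -3.75 ± 0.83 SE, adjusted p = 0.0389 by edgeR's quasi-likelihood test). Of the 8 fits that each left out 1 library, 7 did not call it, and the fit without BI-270 did, with a log2 fold change of -3.27 and an adjusted p of 0.00463 (edgeR). It was also lost when all 16 libraries were fitted together (adjusted p = 0.129, edgeR), and DESeq2 gave an adjusted p of 0.00203.

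Emcn (ENSMUSG00000054690.17, chr3:137341067-137432185, plus strand), which encodes a sialomucin of capillary and venous endothelium, was at 8.50, 5.20, 6.09 and 3.08 CPM in uninjured C57 replicates 1 to 4. The injured C57 libraries held 20.8 CPM in BI-181, 30.0 CPM in BI-183, 14.4 CPM in BI-184 and 19.3 CPM in BI-185. The groups did not overlap, and the log2 fold change of 1.88 ± 0.38 (SE) had an adjusted p of 0.0578 by edgeR's quasi-likelihood test. It was called without uninjured replicate 4 (1.67, adjusted p = 0.0212, edgeR) and by DESeq2 (adjusted p = 0.000112). Emcn and Nrp1 were the 2 genes of the 10 whose C57 groups did not overlap, where 7.11% of all genes tested lay higher in every injured library than in every uninjured library.

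In MRL, Emcn was at 0, 0.437, 11.3 and 1.51 CPM in uninjured replicates 1 to 4. In MRL tendon 7 dpi it was at 0 CPM in BI-270, 2.98 CPM in BI-272, 4.71 CPM in BI-274 and 8.43 CPM in BI-275. Uninjured replicate 3 was the highest of the 8 libraries, and the log2 fold change was 0.28 ± 1.49 (SE, adjusted p = 0.923, edgeR). In MRL the genes whose injured libraries all lay above the uninjured libraries were Vegfa and Nrp1, 2 of the 10, where 13.3% of all genes tested did so.

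Tek (ENSMUSG00000006386.15, chr4:94739289-94874976, plus strand) encodes Tie2, the receptor of the angiopoietins that steady vessels. It was at 12.6, 5.14, 5.70 and 2.69 CPM in uninjured C57 replicates 1 to 4. In C57 tendon 7 dpi it was at 25.3 CPM in BI-181, 10.2 CPM in BI-183, 12.0 CPM in BI-184 and 15.1 CPM in BI-185. In MRL it was at 0, 0.218, 7.94 and 0.557 CPM in uninjured replicates 1 to 4. Uninjured replicate 3 held nearly all of the Tek signal of its group. At 7 dpi in MRL, Tek was at 0 CPM in BI-270, 1.97 CPM in BI-272, 2.76 CPM in BI-274 and 2.44 CPM in BI-275, below every injured C57 library. The log2 fold change of injured MRL over injured C57 tendon was -3.18 ± 0.91 (SE, adjusted p = 0.0843 by edgeR's quasi-likelihood test).

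Cdh5 (ENSMUSG00000031871.9, chr8:104101625-104144511, plus strand), encoding the endothelial cadherin, varied widely within groups. It ranged from 0 to 4.86 CPM in uninjured C57 tendon and from 1.01 to 15.5 CPM 7 dpi, and from 0 to 2.93 and from 0 to 8.49 CPM in the same MRL groups. Its log2 fold change of injured MRL over injured C57 tendon was -1.50 ± 1.26 (SE, adjusted p = 0.534, edgeR), and it was -2.99 without BI-275 and -0.93 without BI-181. Vwf (ENSMUSG00000001930.17, chr6:125546774-125686679, plus strand), encoding the clotting protein von Willebrand factor, which endothelium and megakaryocytes make, ranged from 0.0656 to 6.61 CPM in uninjured C57 tendon and from 5.83 to 19.6 CPM 7 dpi. In MRL it ranged from 0.557 to 11.9 CPM in uninjured tendon and from 0.166 to 4.93 CPM 7 dpi. The injured strains did not overlap for Vwf, with a log2 fold change of -2.86 ± 0.84 (SE, adjusted p = 0.0914, edgeR). Without BI-274 it was -4.04 and called (adjusted p = 0.0288, edgeR), and the other 7 fits without 1 library, which reached -2.43, did not call it.

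Between the injured tendons, all 7 receptor and endothelial genes (Pecam1, Cdh5, Kdr, Flt1, Tek, Emcn and Vwf) had a lower fitted level in MRL, and 1 of them, Pecam1, was called by edgeR. Their median log2 fold change was -2.66, against -0.06 over all 14626 genes tested. All 7 reached the minimum of the filter in the 4 injured C57 libraries and in 3 of the 4 injured MRL libraries. Of the 10 genes, 6 (Pecam1, Kdr, Tek, Emcn, Vwf and Nrp1) were lower in every injured MRL library than in every injured C57 library, where 7.41% of all genes tested were. DESeq2, which called 7.91% of all genes there, called 6 of the 10 (Pecam1, Kdr, Flt1, Tek, Vwf and Nrp1). Over the 8 fits without 1 library each, edgeR called from 1 of the 10 (as without BI-181) to 5. The shares of all genes called in these fits are not given here. The 5 were called without BI-270 (Pecam1, Kdr, Tek, Emcn and Nrp1), with log2 fold changes of -2.18 for Kdr, -2.71 for Tek and -1.97 for Emcn. These comparisons and those within strains share the injured libraries.

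**Figure D2:**
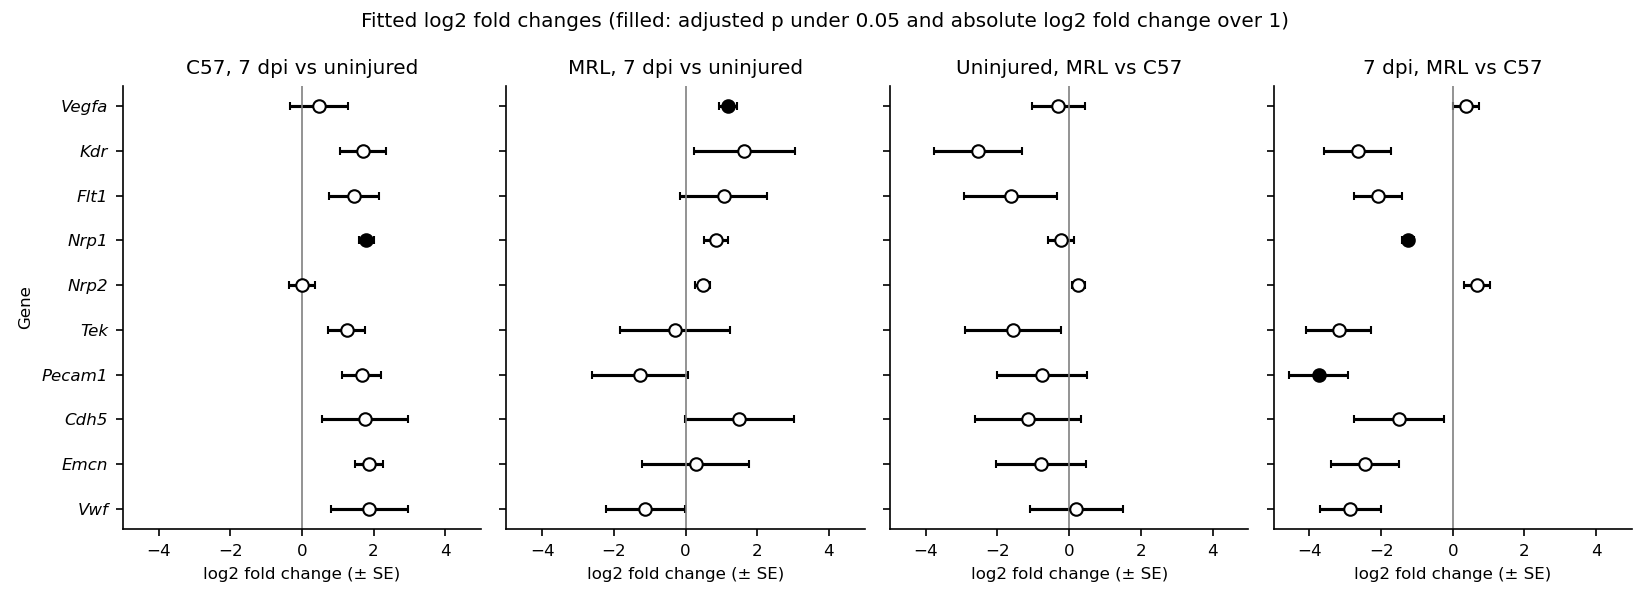
Fitted log2 fold changes with standard errors of the 10 genes in 4 comparisons, each of 4 against 4 libraries. Filled points passed edgeR's quasi-likelihood test and the fold threshold, which were Nrp1 in C57, Vegfa in MRL, and Pecam1 and Nrp1 between the injured strains. The 7 receptor and endothelial genes lie left of 0 in the right panel.

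In uninjured tendon no gene of the 10 was called between the strains, and 0% of the 14055 genes tested were called by edgeR, with 1106 (7.87%) at an unadjusted p under 0.05 and 64 (0.455%) called by DESeq2. None of the 10 had an unadjusted p under 0.05, and DESeq2 called none of them and gave no adjusted p for Pecam1, Cdh5, Kdr and Vegfa. The fitted levels of Pecam1, Cdh5, Kdr, Flt1, Tek and Emcn were lower in MRL, with log2 fold changes from -2.54 (Kdr, SE 1.23) to -0.75 (Pecam1, SE 1.26), and that of Vwf was 0.20 ± 1.30 (SE). These values rested on few libraries. Without uninjured MRL replicate 3 they were -4.62 for Tek, -3.25 for Kdr, -3.12 for Emcn, -2.59 for Pecam1 and Cdh5, -2.27 for Flt1 and -1.45 for Vwf. Without uninjured C57 replicate 1 they were -0.47 for Cdh5 and 0.18 for Pecam1, and without uninjured MRL replicate 1 that of Emcn was -0.36. For Vegfa it was -0.30 ± 0.74 (SE) with all libraries and 1.20 without uninjured C57 replicate 4. No gene of the 10 was called for a difference of its injury effect between the strains, and 0% of the 15947 genes tested passed for the interaction by edgeR, with 1939 (12.2%) at an unadjusted p under 0.05, 1 of the 10 genes among them (Nrp1), and 134 (0.84%) called by DESeq2, none of the 10 among them (it gave no adjusted p for Pecam1 and Vegfa). With all libraries, the widest differences of injury effects were those of Vwf, -3.05 ± 1.66 (SE), and Pecam1, -2.99 ± 1.67 (SE) on the log2 scale. Without uninjured MRL replicate 3 they were -1.39 and -1.13, and that of Tek, -1.59 ± 1.70 (SE) with all libraries, was 1.49. The lowest values were -4.27 for Vwf without BI-274 and -3.91 for Pecam1 without uninjured C57 replicate 1.

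The summed level of the 7 receptor and endothelial genes was 16.8 to 88.7 CPM in uninjured C57 tendon and 94.8 to 174 CPM in C57 tendon 7 dpi. In MRL it was 1.99 to 70.2 CPM in uninjured tendon and 1.44 to 29.7 CPM 7 dpi. In each MRL group the library with the lowest sum was the library without counts of Cdh5, Kdr, Tek and Emcn. Of 35 genes formed by these 7 and 28 further blood endothelial genes, 22 had 3 or fewer counts in uninjured MRL replicate 1, 16 in BI-270 and 15 in uninjured C57 replicate 4, against 0 or 1 in the injured C57 libraries. The remaining 6 MRL libraries had 0 to 10 such genes.

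**Figure D3:**
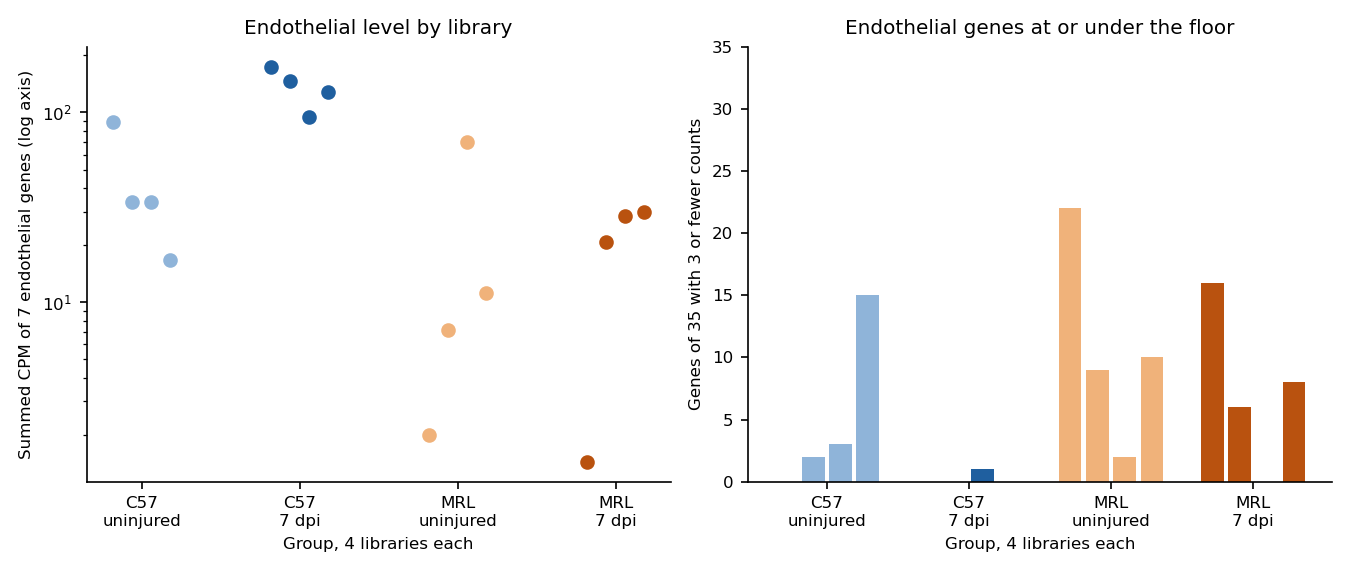
Left, summed CPM of Pecam1, Cdh5, Kdr, Flt1, Tek, Emcn and Vwf in each library on a log axis. Right, number of 35 blood endothelial genes with 3 or fewer counts in each library, where no bar stands for 0. The 4 injured C57 libraries, at 94.8 to 174 CPM, lie above all other libraries.

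After centring each gene on its group means, Emcn (Pearson r = 0.97), Tek (0.97), Pecam1 (0.91), Kdr (0.87), Flt1 (0.85) and Cdh5 (0.84) followed their own mean over the 16 libraries, which each of them helps to form. Vwf followed it less, at r = 0.38. Vegfa (-0.06), Nrp1 (0.18) and Nrp2 (-0.12) did not follow it. The genes outside the 10 most like that mean were Tie1 (r = 0.94), the partner receptor of Tie2, Egfl7 (0.92), a secreted endothelial protein, the long non-coding RNA Gm12052 (0.92, with a mean of 0.31 CPM), Ackr1 (0.88), a chemokine-binding protein of venules, and Gimap4 (0.88), a lymphocyte GTPase gene. The genes most like Vegfa were Hspb1 (0.96), a small heat shock protein, Ociad2 (0.95), Serbp1 (0.94), Fam213a (0.94) and Tecr (0.94), over the same libraries, which include the library with the epidermal counts and the library with the muscle counts. These are descriptions over 16 libraries that share tissue composition and depth, and some exons of Egfl7, Ackr1 and Serbp1 overlap other genes.

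Levels between genes were compared per kilobase of exon (GENCODE M21, GRCm38). In uninjured C57 tendon Vegfa was highest at 4.16 ± 5.32 CPM per kb (SD, n = 4), followed by Nrp2 at 3.40 ± 0.74 and Pecam1 at 2.64 ± 2.52, and the 3 did not differ beyond their spread. The place of Vegfa rested on replicate 4. Without that library, an alternative chosen after seeing the data, Vegfa was the fifth at 1.51 ± 0.55 CPM per kb (SD, n = 3), and Nrp2 (3.75), Pecam1 (3.07), Nrp1 (2.29) and Tek (1.65) lay above it. At 7 dpi in C57, Pecam1 led at 8.45 ± 1.73, followed by Nrp1 at 7.83 ± 1.04, Vegfa at 5.89 ± 3.76 and Emcn at 3.91 ± 1.20 CPM per kb, of which the first 3 did not differ beyond their spread. In uninjured MRL tendon the order began with Nrp2 at 4.10 ± 0.36, Vegfa at 3.47 ± 0.98 and Nrp1 at 1.92 ± 0.96 CPM per kb. At 7 dpi in MRL, Vegfa led at 7.84 ± 1.08, followed by Nrp2 at 5.66 ± 1.48, whose highest library (6.56) lay just above the lowest of Vegfa (6.47), and by Nrp1 at 3.41 ± 0.43 CPM per kb, while no receptor or endothelial gene exceeded 0.745 ± 0.651 CPM per kb (Emcn). Vwf, Kdr and Flt1 took the 3 lowest places in C57 tendon and in MRL tendon 7 dpi.

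**Figure D4:**
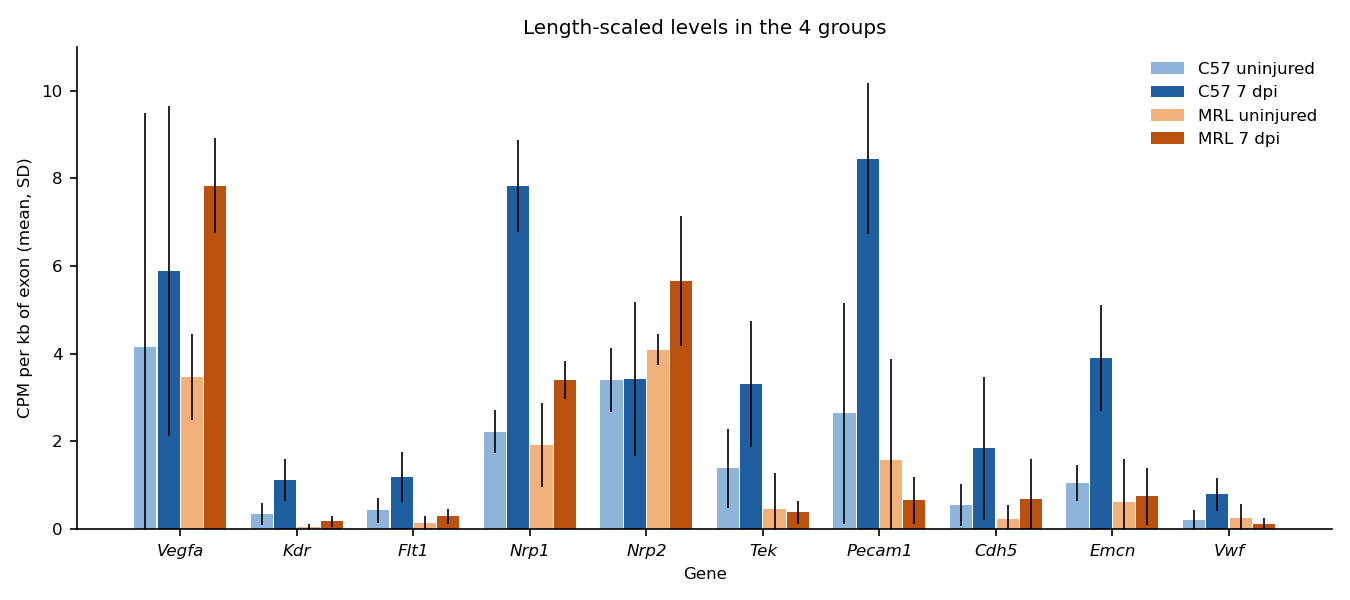
Mean CPM per kb of exon of the 10 genes in the 4 groups, with SD over 4 libraries (the part of an error bar below 0 is not drawn). Pecam1 and Nrp1 are the highest bars in C57 tendon 7 dpi and Vegfa is the highest in MRL tendon 7 dpi.

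The other VEGF ligand genes moved in several directions. Of 5 ligand genes, Vegfa among them, edgeR called 0 in C57 (1 at an unadjusted p under 0.05, and 1 called by DESeq2) and 3 in MRL (4 at an unadjusted p under 0.05, and 4 called by DESeq2). Vegfd, a ligand of the lymphatic receptor, rose in MRL from 4.52 ± 1.79 to 13.2 ± 5.38 CPM (SD, n = 4, log2 fold change 1.56 ± 0.43 SE, adjusted p = 0.0418, edgeR). In C57 it went from 2.65 ± 2.03 to 12.0 ± 2.36 CPM (SD, n = 4), which did not pass (adjusted p = 0.333, edgeR) although the groups did not overlap. Pgf, encoding placental growth factor, a ligand of the decoy receptor, fell in MRL from 22.6 ± 14.8 to 4.84 ± 3.60 CPM (SD, n = 4, log2 fold change -2.21 ± 0.63 SE, adjusted p = 0.0491, edgeR). It was at 47.7 ± 32.3 and 13.8 ± 4.43 CPM in the same C57 groups (SD, n = 4, adjusted p = 0.208, edgeR). Between the injured tendons Vegfc, the other lymphatic ligand, was higher in MRL, at 12.5 ± 1.21 against 3.91 ± 1.30 CPM (SD, n = 4, log2 fold change 1.62 ± 0.34 SE, adjusted p = 0.0277, edgeR). It was the 1 ligand gene called in that comparison by edgeR (3 at an unadjusted p under 0.05, and 1 called by DESeq2).

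Among the 5 receptor and coreceptor genes, Flt4, encoding the lymphatic VEGF receptor, was at 3.66 ± 2.22 CPM (SD, n = 4) in injured C57 tendon and had 1 count in the 4 injured MRL libraries. In uninjured C57 tendon it was at 0.168 ± 0.294 CPM (SD, n = 4). Flt4 reached the minimum of the filter in injured C57 libraries alone, which fixed its direction in both comparisons, so these levels are a description. None of 4 receptor genes tested passed in MRL after injury by edgeR or DESeq2, and 2 had an unadjusted p under 0.05.

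Angiopoietin and Tie genes (6 genes) were at higher fitted levels after injury in C57 for 5 genes, with a median log2 fold change of 1.72 against -0.05 over all genes tested. EdgeR called 0 of them, 5 had an unadjusted p under 0.05, against 15.3% of all genes tested, and DESeq2 called 3, against 5.28%. Tie1 was at 5.24 ± 1.78 and 16.8 ± 4.52 CPM in uninjured and injured C57 tendon (SD, n = 4), with a log2 fold change of 1.67 ± 0.36 (SE, adjusted p = 0.0656, edgeR). In MRL 0 of 5 tested were called by edgeR or DESeq2 and none had an unadjusted p under 0.05. Between the injured strains edgeR called 0 of the 6 (4 at an unadjusted p under 0.05, and 4 called by DESeq2), with a median log2 fold change of -3.34, and 5 of the 6 reached the minimum of the filter in fewer than 4 injured MRL libraries.

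Of the 28 further blood endothelial genes, 27 were tested in C57, 26 had a higher fitted level 7 dpi, 12 of them without overlap, and edgeR called 3 (13 at an unadjusted p under 0.05, and 8 called by DESeq2). Of these 27, 17 reached the minimum of the filter in fewer than 4 uninjured libraries and 3 in fewer than 4 injured libraries. The 3 called by edgeR, which reached that minimum in all 4 libraries of both groups, were Eng, a TGF-β coreceptor gene, from 17.3 ± 2.54 to 37.1 ± 2.42 CPM (SD, n = 4, adjusted p = 0.038, edgeR), S1pr1, a sphingosine 1-phosphate receptor gene, from 19.5 ± 8.02 to 60.6 ± 3.95 CPM (SD, n = 4, adjusted p = 0.0498, edgeR), and Ecscr, an endothelial surface gene, from 4.44 ± 1.46 to 18.2 ± 3.81 CPM (SD, n = 4, adjusted p = 0.0372, edgeR). The median log2 fold change of the list was 1.76. In MRL 19 were tested, with a median of -0.06 against -0.03 over all genes. Cd93, an endothelial lectin-like gene, rose there from 3.99 ± 3.02 to 18.6 ± 7.25 CPM (SD, n = 4, adjusted p = 0.0257, edgeR), and Ramp2, a subunit of the adrenomedullin receptor, fell from 174 ± 48.1 to 83.1 ± 33.4 CPM (SD, n = 4, adjusted p = 0.0373, edgeR). Between the injured strains the 26 tested had a lower fitted level in MRL, 18 of them without overlap, and edgeR called 7 (21 at an unadjusted p under 0.05, and 19 called by DESeq2). Of the 26, 14 reached the minimum of the filter in fewer than 4 injured MRL libraries, against 1 in fewer than 4 injured C57 libraries. Gpihbp1 reached it in C57 alone, so it could differ in that direction alone. Tal1 and Cyyr1 were not tested. Their means were also lower in injured MRL than in injured C57 tendon, at 0.337 ± 0.448 against 1.05 ± 0.971 CPM for Tal1 and 0.0778 ± 0.156 against 1.67 ± 1.24 CPM for Cyyr1 (SD, n = 4). The 7 called by edgeR were Cldn5, Esam, Egfl7, Fli1, Plvap, S1pr1 and Rasip1, with log2 fold changes from -5.24 (Cldn5, a tight junction gene, SE 1.18) to -1.26 (S1pr1, SE 0.17). Cldn5 reached that minimum in 2 and Rasip1 in 1 of the 4 injured MRL libraries, and the other 5 reached it in all 4.

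Tip cell and Notch genes, which mark and limit sprouting, included none called within a strain by edgeR (C57, 2 of 10 tested at an unadjusted p under 0.05 and 2 called by DESeq2, and MRL, 1 of 6 and 1). The smallest adjusted p was that of Unc5b, a netrin receptor gene, at 16.7 ± 4.27 CPM in uninjured and 4.79 ± 1.501 CPM in injured C57 tendon (SD, n = 4, adjusted p = 0.0532, edgeR). Between the injured strains edgeR called 1 of the 11, Dll4, the tip cell Notch ligand gene, at 3.53 ± 3.50 CPM (SD, n = 4) in C57 and 1 count in the 4 MRL libraries. Since it reached the minimum of the filter in C57 alone, it could come out in that direction alone, and the other 10 were not called (5 of the 11 at an unadjusted p under 0.05, and 3 called by DESeq2). Among 7 genes of venous and activated endothelium, Vcam1, a leukocyte adhesion gene that fibroblasts also express, rose in both strains. It went from 2.59 ± 0.98 to 23.1 ± 10.8 CPM in C57 (SD, n = 4, adjusted p = 0.0216, edgeR) and from 3.60 ± 1.99 to 29.4 ± 17.2 CPM in MRL (SD, n = 4, adjusted p = 0.019, edgeR). It was the 1 gene of that list called by edgeR in either strain. In C57, 6 of the 7 had an unadjusted p under 0.05, Selp, Sele, Vcam1 and Icam1 lay higher without overlap, and DESeq2 called 2. Ephb4 lay lower without overlap there, at 36.7 to 58.5 CPM in uninjured and 19.1 to 35.8 CPM in injured C57 tendon. In MRL, 3 of 5 tested had an unadjusted p under 0.05, none lay higher without overlap, and DESeq2 called 2. The fitted level was lower for 3 of these 5, with a median log2 fold change of -0.60. Nr2f2 lay lower without overlap, at 20.5 to 29.6 CPM in uninjured and 11.8 to 20.2 CPM in injured MRL tendon. Between the injured strains edgeR called 0 of the 7 (3 at an unadjusted p under 0.05, and 2 called by DESeq2).

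Class 3 semaphorins, the other ligands of the neuropilins, and their plexin partners gave no call within a strain by edgeR (11 tested in each, 3 at an unadjusted p under 0.05 in each, and 2 called by DESeq2 in C57 and 1 in MRL) and none between the injured strains (3 at an unadjusted p under 0.05, and 2 called by DESeq2). The smallest adjusted p was that of Sema3a in MRL, at 169 ± 36.6 and 104 ± 25.9 CPM (SD, n = 4, adjusted p = 0.0696, edgeR).

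Of 12 genes of the hypoxia response, Vegfa among them, edgeR called Vegfa alone higher after injury in MRL and 2 lower (6 at an unadjusted p under 0.05, and 4 called by DESeq2). Egln3, a prolyl hydroxylase gene induced by low oxygen, fell from 39.8 ± 15.4 to 9.11 ± 2.96 CPM (SD, n = 4, log2 fold change -2.13 ± 0.33 SE, adjusted p = 0.00416, edgeR). Ndrg1 fell from 300 ± 28.7 to 141 ± 51.7 CPM (SD, n = 4, log2 fold change -1.08 ± 0.26 SE, adjusted p = 0.0269, edgeR). The median log2 fold change of the list was -0.11 in MRL and -0.17 in C57, where edgeR and DESeq2 called 0 and 1 had an unadjusted p under 0.05. Between the injured strains edgeR called 0 of the 12 (3 at an unadjusted p under 0.05, and 1 called by DESeq2).

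Markers of other cells were also compared between the injured strains, and their levels differed in both directions. The summed level of 8 mural cell genes was 429 to 627 CPM in injured C57 and 258 to 377 CPM in injured MRL tendon, and edgeR called 2 of them, Rgs5 and Notch3, lower in MRL. Of the 8, 7 had a lower fitted level in MRL (median log2 fold change -2.84), 4 of them without overlap, 6 had an unadjusted p under 0.05 and DESeq2 called 5, while 4 of the 8 reached the minimum of the filter in fewer than 4 injured MRL libraries. Cspg4, another pericyte gene, was the 1 with a higher fitted level, at 101 to 163 CPM in injured C57 and 169 to 267 CPM in injured MRL tendon, without overlap and without a call (log2 fold change 0.57 ± 0.21 SE, adjusted p = 0.157, edgeR). Rgs5, a pericyte gene, was at 159 ± 34.5 CPM in injured C57 and 25.9 ± 10.8 CPM in injured MRL tendon (SD, n = 4, adjusted p = 0.00169, edgeR). After injury in C57, Rgs5 rose (adjusted p = 0.0453, edgeR) and was the 1 mural gene called by edgeR. There 6 of the 8 had a higher fitted level (median log2 fold change 1.59), Rgs5, Abcc9 and Higd1b lay higher without overlap, 3 had an unadjusted p under 0.05 and DESeq2 called 2, while Pdgfrb and Cspg4, at -0.44 and -0.43, were the 2 below 0. In MRL, 6 were tested, 5 had a lower fitted level, and Pdgfrb fell (adjusted p = 0.0275, edgeR), the 1 called by edgeR (2 at an unadjusted p under 0.05, and 1 called by DESeq2). The sum of 8 macrophage genes was 1584 to 2519 CPM in injured C57 and 594 to 1319 CPM in injured MRL tendon, with 4 of the 8 (Csf1r, C1qa, C1qb and C1qc) called lower in MRL by edgeR (7 at an unadjusted p under 0.05, and 5 called by DESeq2). After injury in C57, edgeR called 4 of the 8 higher (Adgre1, Cd68, C1qa and Mrc1), while all 8 had an unadjusted p under 0.05, lay higher without overlap and were called by DESeq2. In MRL, edgeR called 2 higher (Adgre1 and Cd68), with 4 at an unadjusted p under 0.05, 2 without overlap and 2 called by DESeq2.

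The sum of 7 lymphatic endothelial genes was 189 to 374 CPM in injured C57 and 109 to 157 CPM in injured MRL tendon. Most of these sums came from Pdpn and Lyve1, the latter at 217 ± 85.5 and 46.4 ± 23.5 CPM in the same groups (SD, n = 4). Prox1 was at 0.721 ± 0.958 and 0.376 ± 0.610 CPM there (SD, n = 4). Of the 4 tested, Flt4 and Mmrn1 (no count in any MRL or uninjured library) reached the minimum of the filter in injured C57 alone, so their calls as lower in MRL could go in no other direction. Of the other 2, Lyve1 was called lower in MRL, and Pdpn, which fibroblasts also express, was at 47.0 ± 16.5 CPM in injured C57 and 90.3 ± 30.3 CPM in injured MRL tendon (SD, n = 4) and did not pass (adjusted p = 0.128, edgeR). After injury in MRL, edgeR and DESeq2 each called 2 of 3 tested, and by edgeR Pdpn rose and Lyve1 fell. In C57, Pdpn ranged from 9.18 to 21.2 CPM in uninjured and from 31.0 to 67.4 CPM in injured tendon, without overlap (log2 fold change 1.43 ± 0.34 SE, adjusted p = 0.0855, edgeR), and Lyve1 had a log2 fold change of 0.73 (adjusted p = 0.449, edgeR). DESeq2 called 3 of the 4 tested in C57 and edgeR called Mmrn1, in the direction the filter fixed. Platelet genes (6) summed to 319 to 397 CPM in injured C57 and 115 to 276 CPM in injured MRL tendon, with Pf4 rising in both strains, Ppbp called higher in MRL (it reached the minimum in injured libraries alone and had no count in uninjured ones), 2 called by DESeq2 in MRL and 1 in C57, and 0 of 4 tested called between the injured strains by edgeR (1 at an unadjusted p under 0.05, and 1 called by DESeq2). These platelet sums were mostly Pf4, at 351 ± 34.4 CPM in injured C57 and 174 ± 69.5 CPM in injured MRL tendon (SD, n = 4). The next highest platelet gene, Itga2b, was at 12.4 ± 2.97 and 8.28 ± 4.80 CPM in the same groups (SD, n = 4). Red blood cell genes (5) summed to 72.7 to 487 CPM in injured C57 and 16.4 to 315 CPM in injured MRL tendon, and Hba-a2, whose near-identical copy makes its counts uncertain, had no count in injured MRL libraries and was the 1 of the 5 called there by edgeR, in the direction the filter fixed. Within strains edgeR called no red blood cell gene (4 at an unadjusted p under 0.05 and 3 called by DESeq2 in C57, and 0 of either in MRL). Tendon genes (8) summed to 14851 to 25688 CPM in injured C57 and 26201 to 52102 CPM in injured MRL tendon, and edgeR called Scx higher in MRL, with all 8 at a higher fitted level there (5 at an unadjusted p under 0.05, and 2 called by DESeq2). Within strains, edgeR called Thbs4 and the muscle gene Tnni2 higher in MRL and no tendon or muscle gene in C57 (4 tendon and 6 muscle genes at an unadjusted p under 0.05, and 2 and 0 called by DESeq2), and edgeR called no epidermal gene in either strain (7 at an unadjusted p under 0.05 in C57 and 1 in MRL, and 0 called by DESeq2). The part of these cells in the levels of the 10 genes was not tested.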

How the data were processed

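Total RNA of 16 single flexor tendons was sequenced as 100-nt single-end reads. The methods describe pre-amplification with a SMARTer kit and NexteraXT libraries, whereas the labels name a TruSeq kit, and no molecular identifiers are named. Per the submitters' processing notes, the authors used Trimmomatic 0.36, STAR 2.5.2b, Subread 1.5.0p3 with featureCounts, GRCm38.p5 and DESeq2 1.14.1; the gene annotation and strand setting are not given in the sources used here, so overlapping genes cannot be told apart. The deposited table holds raw counts (whole numbers) of 49568 symbols, which the authors had neither normalized nor filtered.

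Groups were taken from the labels. Uninjured libraries are numbered 1 to 4 as in their labels, and injured libraries, which carry names such as BI-181 (C57) and BI-270 (MRL), are replicates 1 to 4 in the order of those names. No batch was given. Counts were tested with edgeR 4.0.16 in R 4.3.3 (TMM, expression filter, robust quasi-likelihood test), with each pair of groups fitted alone and the interaction over all 16 libraries. CPM used TMM-adjusted library sizes, log2 CPM a prior count of 2, and SE were obtained by dividing the log2 fold change by the root of the F statistic. Fits were tested on simulated data. The alternatives were DESeq2 1.42.0, upper-quartile factors, no filter, all 16 libraries in one fit, the replicate number as a block, and leaving out libraries. Counting intervals and floors cover counting error only.

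The 10 genes and the lists were chosen with earlier results of these data known. All 10 are named, with up to 4 called genes per list by smallest adjusted p within strains, or else the gene with the smallest; the list genes named between injured strains were chosen after their values were seen, as were Angpt1, Angpt2 and Vegfb. Likeness was the Pearson correlation of group-centred log2 CPM. Gene coordinates and exon lengths are from GENCODE M21.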

Additional observations from a re-analysis of the deposited data

Results flagged for a closer look

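In groups of 4 libraries, 4 of the 40 combinations of gene and group held a library whose gap to its nearest neighbour on the log2 CPM scale exceeded Dixon's 95% critical value, where chance gives about 1 in 20. In BI-270 (injured MRL), Kdr was at 0 CPM, against 1.89 to 2.40 CPM in the other 3 libraries. Tek was at 0 CPM in the same library, against 1.97 to 2.76 CPM. Flt1 was at 0.535 CPM there, against 3.96 to 5.82 CPM. In BI-274 (injured MRL), Nrp2, the coreceptor gene, was at 40.9 CPM, against 73.4 to 77.7 CPM in the others.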

How the results depend on the processing

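The number of the 10 genes called after injury in C57 was 1 and became 3 by DESeq2 (Pecam1, Emcn and Nrp1), which called 5.28% of all genes against 1.07% by edgeR, 3 without BI-181 and uninjured replicate 4 together (Emcn, Vegfa and Nrp1), and 0 to 3 without 1 library each. In MRL it was 1 and became 0 when all 16 libraries were fitted together or without BI-270 and uninjured replicate 1 together. Between the injured strains it was 2 and became 6 by DESeq2, which called 7.91% against 3.43%, 1 without a filter on low counts, 1 with all 16 libraries in one fit, and 1 to 5 without 1 library each. The fits without 2 libraries together that are named by BI numbers were chosen after seeing the data. For the fits that left out libraries, the shares of all genes called are not given here, so their counts have no share beside them. Between the uninjured strains and for the interaction it was 0 under every alternative run. Same-numbered uninjured C57 and MRL libraries come from different animals, and their deviations correlated at -0.193, -0.0293, -0.0978 and -0.238, so the numbers do not pair them; the replicate block left 0 genes called and gave Vegfa a log2 fold change of 0.59. Without both uninjured replicate 4 libraries, that of Vegfa was 1.35 between the uninjured strains, and the interaction values were 0.45 for Kdr, 0.40 for Flt1 and -0.96 for Vegfa. Leaving out 1 library each, log2 fold changes that turned sign ranged, in C57 after injury, from -0.03 to 1.96 for Vegfa and from -0.33 to 0.27 for Nrp2. In MRL after injury they ranged from -1.76 to 0.56 for Pecam1, -0.07 to 2.90 for Cdh5, -0.70 to 2.75 for Tek, -0.38 to 2.61 for Emcn and -2.35 to 0.52 for Vwf. Between the uninjured strains they ranged from -2.59 to 0.18 for Pecam1, -1.45 to 0.75 for Vwf, -0.61 to 1.20 for Vegfa and -0.49 to 0.01 for Nrp1. For the interaction they ranged from -1.86 to 1.13 for Cdh5, -0.63 to 0.63 for Kdr, -0.87 to 0.23 for Flt1, -2.12 to 1.49 for Tek, -2.31 to 0.71 for Emcn and -0.81 to 1.18 for Vegfa. The cause was not tested. The highest values in MRL after injury all came without uninjured replicate 3.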

Other observations

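Other vascular ligand genes also varied. Vegfb, a ligand of the decoy receptor, was at 5.48 to 60.2 CPM in injured C57 tendon, against 6.61 to 11.2 CPM in uninjured C57 tendon, and its maximum was in the library with the most muscle counts. Angpt2, the endothelial angiopoietin that loosens vessels, was at 1.42 ± 1.38 CPM in uninjured and 13.2 ± 5.22 CPM in injured C57 tendon (SD, n = 4, adjusted p = 0.198 by edgeR's quasi-likelihood test), and at 1.23 ± 1.37 CPM in injured MRL tendon (SD, n = 4), without overlap between the injured strains (adjusted p = 0.0837, edgeR). Angpt1, the steadying angiopoietin made by mural and stromal cells, was at 1.82 ± 0.90 and 7.52 ± 3.37 CPM in the C57 groups (SD, n = 4, adjusted p = 0.135, edgeR) and at 5.64 ± 2.05 and 5.64 ± 3.13 CPM in the MRL groups (SD, n = 4, adjusted p = 0.997, edgeR).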
